A study of Mus musculus with 6 samples.

Results

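Collagens are the main structural proteins of the extracellular matrix, and 43 collagen genes were followed in 6 fetal mouse livers, 3 of wild type and 3 homozygous for the E861A mutation of Adar1. They were the genes of the deposited count table whose symbol is Col, a number, the letter a and a second number, 43 of 37576 genes. Col4a3bp, which encodes a ceramide transfer protein, begins with the same letters but was not a member. RNA came from whole livers of C57BL/6 embryos at embryonic day 12.5, dispersed to single cells before extraction with Trizol. The wild-type group held liver 2, a male, and livers 15 and 17, both female. The Adar1E861A/E861A group, called E861A here, held livers 6, 16 and 19, each of them male, and sex is therefore not balanced between the genotypes. The mutation is carried by every cell of the embryo, and ADAR1 with this change cannot convert adenosine to inosine in double-stranded RNA. The labels do not say whether the embryos shared a litter, so p-values measure only the spread between these livers.

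A collagen molecule is built from 3 chains wound into a triple helix, and different genes supply the chains of each type. Fibrillar collagens form the ropes of connective tissue, basement-membrane collagens form a sheet under epithelium and around vessels, and beaded-filament collagens connect cells to the matrix around them. FACIT collagens decorate the fibrils, transmembrane collagens are anchored in the cell surface, and multiplexins such as Col18a1 carry sugar chains in basement membranes. In the fetal liver the fibrillar chains are made mainly by mesenchymal and stellate cells, a small share of the organ, while endothelial cells and hepatoblasts also make basement-membrane chains.

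Some partner chains are encoded by neighbouring genes. In the NCBIM37 build, Col4a1 and Col4a2, the α1 and α2 chains of the common basement-membrane collagen, begin 21 bp apart on opposite strands of chromosome 8. Col4a3 and Col4a4, chains of specialised basement membranes, begin 72 bp apart on chromosome 1. Col4a5 and Col4a6 also point away from each other, with starts 1309 bp apart on the X chromosome, beyond the 1000 bp used here to call a shared start region. The sequences of the windows from 250 bases before to 50 after the gene start are shown for this closest pair, because their levels moved in step, and for Col1a2 and Col3a1, because these had the largest counts with Col1a1. They are RefSeq sequences of the build GRCm38.p6, in the direction of the gene. Capitals mark the letters of the CCAAT box, of the GC box GGGCGG and of the TATA box TATAAA, or their reverse complements. The Col4a1 and Col4a2 windows lie on opposite strands at chr8:11312777-11313076 and chr8:11312555-11312854 and overlap in part. The Col1a2 window lies on the forward strand at chr6:4505368-4505667 and the Col3a1 window on the forward strand at chr1:45311288-45311587.
Col4a1: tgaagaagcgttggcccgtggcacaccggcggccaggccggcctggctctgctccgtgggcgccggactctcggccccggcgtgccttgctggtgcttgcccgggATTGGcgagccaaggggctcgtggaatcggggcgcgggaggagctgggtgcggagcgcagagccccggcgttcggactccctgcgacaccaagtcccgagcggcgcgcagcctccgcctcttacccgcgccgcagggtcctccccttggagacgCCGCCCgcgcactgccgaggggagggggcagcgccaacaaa
Col4a2: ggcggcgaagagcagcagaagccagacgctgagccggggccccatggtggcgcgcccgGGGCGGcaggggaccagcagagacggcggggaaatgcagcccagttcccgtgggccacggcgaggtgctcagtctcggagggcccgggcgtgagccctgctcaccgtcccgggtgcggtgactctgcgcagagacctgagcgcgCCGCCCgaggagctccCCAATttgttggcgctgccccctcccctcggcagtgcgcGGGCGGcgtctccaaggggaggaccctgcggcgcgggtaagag
Col1a2: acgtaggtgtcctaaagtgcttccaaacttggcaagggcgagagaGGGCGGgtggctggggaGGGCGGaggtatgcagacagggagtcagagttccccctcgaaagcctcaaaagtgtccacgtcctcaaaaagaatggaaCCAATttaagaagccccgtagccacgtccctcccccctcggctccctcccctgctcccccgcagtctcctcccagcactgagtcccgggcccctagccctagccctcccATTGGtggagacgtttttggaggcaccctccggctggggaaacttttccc
Col3a1: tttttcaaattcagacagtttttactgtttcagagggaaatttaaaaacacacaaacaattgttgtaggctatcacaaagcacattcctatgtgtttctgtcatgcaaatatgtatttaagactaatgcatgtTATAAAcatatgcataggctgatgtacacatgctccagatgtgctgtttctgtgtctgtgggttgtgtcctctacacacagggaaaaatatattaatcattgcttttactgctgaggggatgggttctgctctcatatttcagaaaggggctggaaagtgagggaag
Such windows could be matched for 35 of the 43 genes, in 38 windows. GGGCGG was present in 23 of the 38 windows (60.5%) and in 35.7% of all 32851 RefSeq windows of this length. CCAAT was present in 13 of the 38 and in 37.4% of all windows, and TATAAA in 5 of the 38 and in 13.6% of all windows. These matches describe the letters only.

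Reads counted in genes ranged from 35280460 to 43733715 per liver. All reads on the 43 collagen genes together made up 0.335% of these reads in wild type 2, 0.0999% in wild type 15 and 0.192% in wild type 17. In E861A the share was 0.203% in liver 6, 0.167% in liver 16 and 0.318% in liver 19. The 2 livers with the most collagen reads were thus 1 of each genotype, and the groups overlapped. The share was 0.209% ± 0.118 (SD, n = 3) in wild type and 0.230% ± 0.0788 (SD, n = 3) in E861A, a difference of 0.0206 percentage points (exact two-sided permutation test, p = 0.9, where 0.1 is the smallest p that 3 livers against 3 allow). Col1a1, Col1a2 and Col3a1 made up between 36.8% and 57.7% of the collagen reads of a liver. In RNA of a whole organ, fewer cells of a type and less RNA per cell cannot be told apart, and this holds for each level below.

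No collagen gene passed the test between the genotypes. The filter on low counts left 38 of the 43 genes, and of these 38, 0 rose and 0 fell in E861A at an adjusted p under 0.05 with edgeR's quasi-likelihood test. Of all 16511 tested genes, 7.77% rose and 4.26% fell, 12.0% in all. At an unadjusted p under 0.05 there were 3 of the 38 (Col18a1, Col4a2 and Col9a3), against 27.7% of all tested genes. DESeq2 also called 0 of its 40 collagen genes, where it called 8.45% of its tested genes higher and 8.06% lower. In the authors' deposited table, 0 of 36 collagen genes had an adjusted p under 0.05, against 13.3% of its genes. The median log2 fold change of E861A over wild type was −0.04 over the 38 collagen genes and 0.04 over all tested genes. The collagen median moved to 0.59 without wild type 2 and to −0.41 without E861A 19, and it was −0.60 with sex as a term and −0.62 with male livers only. None of the 38 tested collagen genes had all 3 livers of one genotype above all 3 of the other, while 19.4% of tested genes had every E861A liver above and 14.5% every E861A liver below. With 3 livers a genotype and the spread described next, changes of the size of the standard errors could not be detected, and these ranged from 0.22 for Col18a1 to 1.46 for Col6a4 on the log2 scale.

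**Figure D1:**
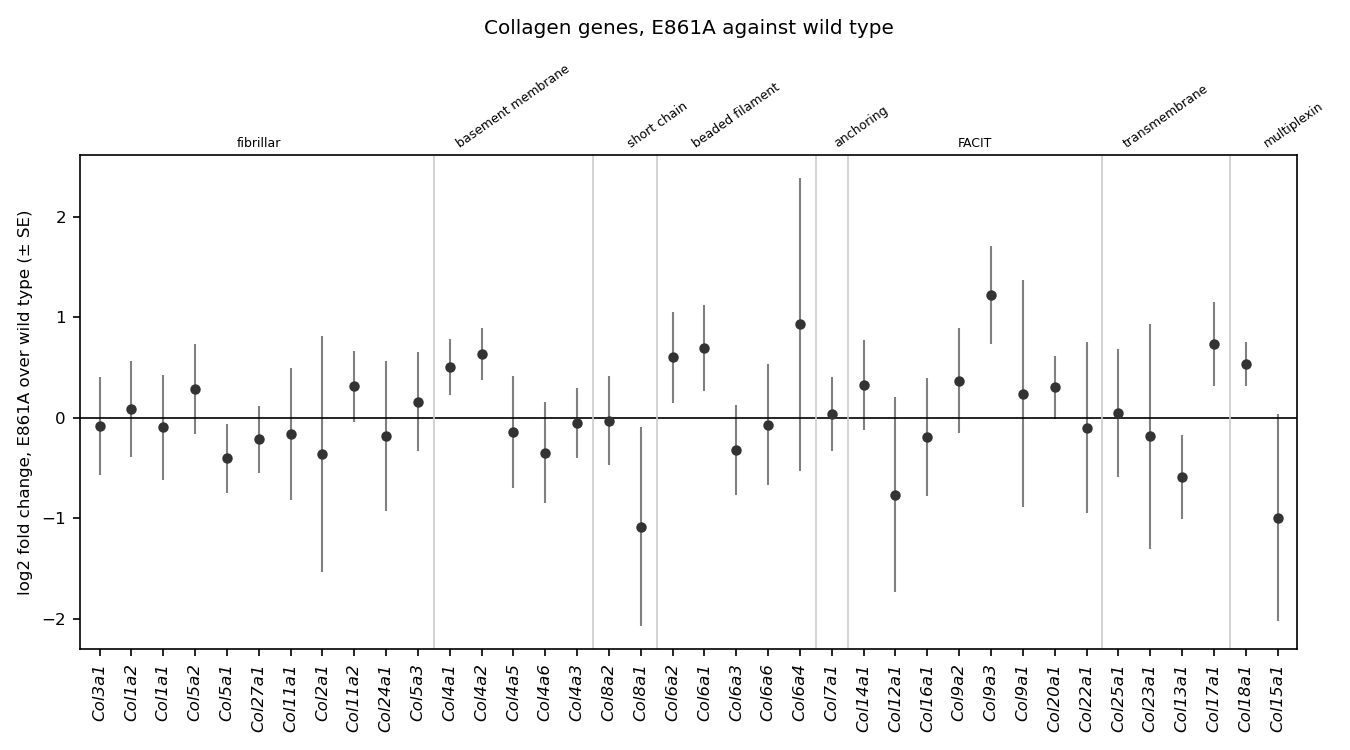
Log2 fold change of E861A over wild type, with its standard error, for the 38 tested collagen genes, grouped by class along the horizontal axis. The points lie on both sides of 0, from −1.09 for Col8a1 to 1.23 for Col9a3, and genes that differ several-fold between livers of a genotype, such as Col2a1 and Col6a4, have the longest bars.

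The genes that were not tested were low in every liver. Col4a4 was at 0.713, 0.130 and 0.0530 counts per 1e+06 reads (CPM) in wild type 2, 15 and 17 and at 0.0946, 0.113 and 0.853 CPM in E861A 6, 16 and 19. Its 2 highest livers were wild type 2 and E861A 19. Col6a5, Col19a1 and Col28a1 were each at or below 0.575 CPM. Col10a1, the collagen of hypertrophic cartilage, had 0, 1 and 1 reads in wild type and 4, 9 and 4 reads in E861A, without overlap but on too few reads to be tested.

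Collagen levels differed several-fold between livers of the same genotype. Wild type 2 was the highest wild-type liver for 31 of the 38 tested collagen genes, where this holds for 36.9% of all tested genes. E861A 19 was the highest E861A liver for 34 of the 38, against 35.7% of all tested genes. Both were the highest 2 of the 6 livers for 24 of the 38, against 16.1% of all tested genes. This pair of livers was singled out after the values were seen, so the counts are descriptions. Among the 33 collagen genes with a mean of at least 1 CPM, the median SD of log2 CPM between livers was 0.93 in wild type and 0.63 in E861A. Over the 13929 tested genes at that level the medians were 0.22 and 0.23. Without wild type 2, the wild-type median of the collagen genes was 0.40. The SD lay above the 90th percentile of those genes for 24 of the 33 in wild type and for 21 in E861A.

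**Figure D2:**
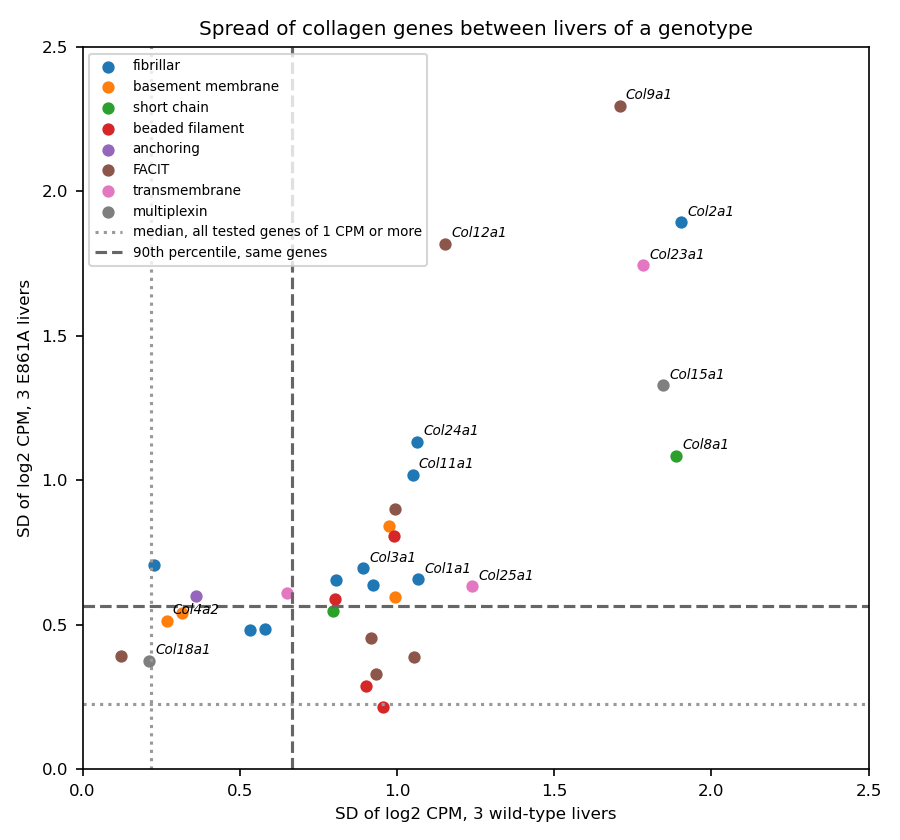
SD of log2 CPM between the 3 wild-type livers (horizontal) and between the 3 E861A livers (vertical) for the 33 collagen genes with a mean of at least 1 CPM, coloured by class. Dotted lines mark the medians (0.22 and 0.23) and dashed lines the 90th percentiles (0.67 and 0.57) of all 13929 genes at that level; most collagen genes lie beyond the dashed line in at least 1 genotype, while Col18a1 and Col4a2 lie inside both.

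The fibrillar collagens were the most abundant class. Col3a1, the chain of type III collagen in soft organs, was at 671, 202 and 483 CPM in wild type 2, 15 and 17 and at 395, 245 and 644 CPM in E861A 6, 16 and 19. Col1a1, the major chain of type I collagen, was at 496, 117 and 314 CPM in wild type and at 324, 162 and 381 CPM in E861A, the livers in the same order. Col1a2, its partner chain, was at 504, 145 and 354 CPM in wild type and at 374, 206 and 487 CPM in E861A. For these 3 genes wild type 2 and E861A 19 were the highest livers, wild type 15 was the lowest and E861A 16 the next, and the genotypes overlapped fully. The log2 fold changes were −0.08 (SE 0.49) for Col3a1, −0.10 (SE 0.53) for Col1a1 and 0.09 (SE 0.48) for Col1a2, and each edgeR adjusted p was at least 0.937. The sign of Col1a2 turned when sex was a term (−0.50), when only male livers were compared (−0.50) and with the mesenchymal marker level as a covariate (−0.19).

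The minor fibrillar chains followed the same livers less evenly. Col5a2, a chain of the type V collagen that sets fibril width, was at 172, 56.8 and 113 CPM in wild type and at 139, 80.3 and 197 CPM in E861A. Col5a1, its partner, was at 157, 70.3 and 108 CPM in wild type and at 74.8, 61.3 and 118 CPM in E861A. Both had wild type 2 and E861A 19 at the top, with E861A 19 higher for Col5a2 and wild type 2 higher for Col5a1. Col2a1, the fibrillar collagen best known from cartilage, was far lower and far more uneven, at 14.0, 0.965 and 3.05 CPM in wild type and at 1.23, 1.10 and 11.7 CPM in E861A. Its highest liver exceeded its lowest 14.5-fold within wild type and 10.6-fold within E861A. Col11a1, Col24a1 and Col27a1 also had this pair highest, whereas Col11a2 did not, with 8.09 CPM in E861A 19 but 4.02 CPM in wild type 2. Of the 11 fibrillar genes, 9 had wild type 2 and E861A 19 as the highest 2 livers.

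**Figure D3:**
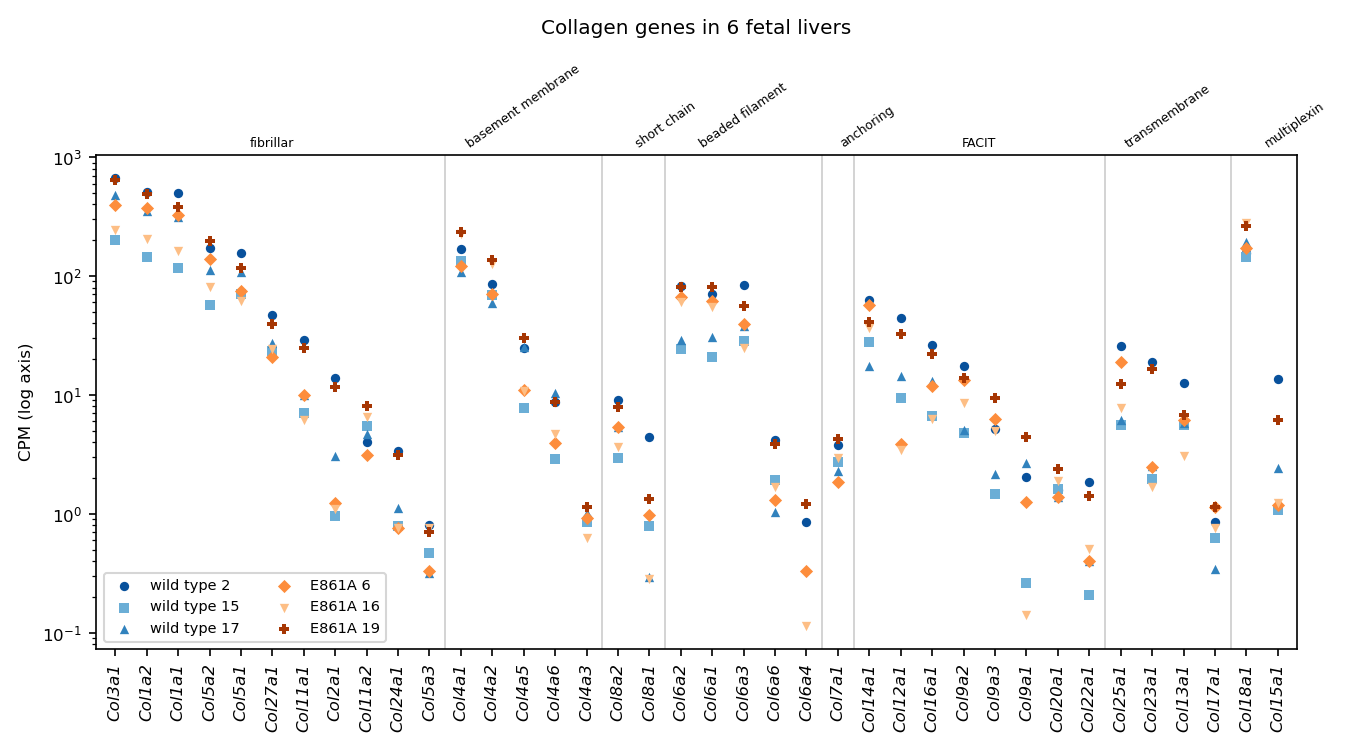
CPM on a log axis of the 38 tested collagen genes in the 6 livers, grouped by class and ordered by mean level within a class; 1 symbol is 1 liver, blue for wild type and orange to brown for E861A. Wild type 2 and E861A 19 sit at the top for 24 of the 38 genes; Col6a4 had no read in wild type 15 and 17, which are therefore not drawn.

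The chains of the basement membrane had a different order of livers. Col4a1 was at 167, 135 and 108 CPM in wild type 2, 15 and 17 and at 120, 225 and 236 CPM in E861A 6, 16 and 19. Col4a2 was at 85.8, 69.1 and 59.4 CPM in wild type and at 70.8, 125 and 136 CPM in E861A. Col18a1, whose product lies in vessel and epithelial basement membranes, was at 158, 145 and 193 CPM in wild type and at 173, 280 and 263 CPM in E861A. For each of these genes E861A 16 and 19 were the highest 2 livers, and E861A 6 lay within the wild-type range, so that the groups overlapped. The log2 fold changes were 0.50 (SE 0.28) for Col4a1, 0.63 (SE 0.26) for Col4a2 and 0.53 (SE 0.22) for Col18a1, with edgeR adjusted p of 0.298, 0.162 and 0.153. Without E861A 6, Col4a2 rose (log2 fold change 0.87, edgeR adjusted p 0.0396). Over the fixed list of 14 endothelial markers, 6 rose and 1 fell, where 7.77% of all tested genes rose and 4.26% fell. The summed level of this list was 629, 797 and 636 CPM in wild type and 749, 1058 and 1006 CPM in E861A. It was also highest in E861A 16 and 19, as were the summed lists of collagen processing, dissociation response and, by little, mesothelium genes. The part of endothelial cells in the levels of Col4a1, Col4a2 and Col18a1 was not tested.

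The rarer type IV chains differed from this pair. Col4a5, a chain of specialised basement membranes, was at 24.7, 7.69 and 25.1 CPM in wild type and at 11.1, 10.8 and 30.2 CPM in E861A. Col4a6, its neighbour, was at 8.76, 2.89 and 10.4 CPM in wild type and at 3.95, 4.69 and 8.71 CPM in E861A. Both were high in wild type 2, wild type 17 and E861A 19 and low in the other 3 livers, and the log2 fold changes were −0.14 (SE 0.56) and −0.35 (SE 0.50). Col4a3 stayed between 0.621 and 1.14 CPM in all 6 livers.

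Among the beaded-filament chains, the comparison of genotypes depended on wild type 2. Col6a1 was at 70.8, 20.8 and 30.7 CPM in wild type 2, 15 and 17 and at 61.9, 54.9 and 81.2 CPM in E861A 6, 16 and 19. Col6a2, which joins Col6a1 in type VI collagen, was at 82.9, 24.4 and 28.9 CPM in wild type and at 66.3, 60.0 and 80.4 CPM in E861A. Col6a3, the large α3 chain, was at 83.4, 28.3 and 38.2 CPM in wild type and at 39.4, 24.8 and 56.0 CPM in E861A. All E861A livers exceeded wild type 15 and 17 for Col6a1 and Col6a2, wild type 2 was close to the highest E861A liver for both, and Col6a3 followed no such split. The log2 fold changes were 0.70 (SE 0.43) for Col6a1, 0.60 (SE 0.45) for Col6a2 and −0.32 (SE 0.45) for Col6a3, with edgeR adjusted p of 0.360, 0.459 and 0.720. Without wild type 2, Col6a1 rose by 1.33 and Col6a2 by 1.35 on the log2 scale (edgeR adjusted p 0.00935 and 0.00303), with female wild-type livers against male E861A livers. With sex as a term, which leaves wild type 2 as the only male of its genotype, the values were −0.10 and −0.27 and neither passed.

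Without wild type 2, 6 of 38 collagen genes rose (15.8%) and 0 fell, against 10.4% and 8.96% of all genes tested in those 5 livers. The wild-type livers that remain are both female and the E861A livers all male. Genotype and sex therefore cannot be told apart in these calls or in those without both livers below. With sex as a term over all 6 livers 0 collagen genes were called. Over all 16511 genes, calls went from 1986 to 569 with that term. Besides Col6a1 and Col6a2 the genes that rose without wild type 2 were Col6a4, Col9a2, Col9a3 and Col14a1. Col14a1, a FACIT collagen, was at 62.6, 27.7 and 17.4 CPM in wild type and at 57.1, 36.6 and 41.3 CPM in E861A. Col6a4 had 37 reads in wild type 2 and none in wild type 15 and 17, so no fold is given for it. Without both wild type 2 and E861A 19, an alternative added after the values were seen, 4 of 37 collagen genes rose and 1 fell, against 9.27% and 7.13% of all genes tested. The 4 were Col6a1, Col6a2, Col9a2 and Col9a3, with log2 fold changes from 1.13 to 1.62. The gene that fell was Col12a1 (log2 fold change −1.71, SE 0.28, edgeR adjusted p 0.0141).

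The FACIT collagens included the gene nearest the threshold and very uneven ones. Col9a3, a type IX chain, was at 5.17, 1.46 and 2.17 CPM in wild type and at 6.26, 4.997 and 9.36 CPM in E861A. Only wild type 2 lay within the E861A range, and the log2 fold change of 1.23 (SE 0.49) had the lowest p of the collagen genes (edgeR adjusted p 0.150). Col9a2, another type IX chain, was at 17.6, 4.82 and 5.06 CPM in wild type and at 13.3, 8.47 and 13.8 CPM in E861A. Col12a1, which binds type I fibrils, was at 44.2, 9.33 and 14.4 CPM in wild type and at 3.88, 3.42 and 32.6 CPM in E861A. Its level in E861A 19 was thus 9.56 times that in E861A 16, and E861A 6 and 16 lay below every wild-type liver. Col9a1 was at 2.02, 0.261 and 2.68 CPM in wild type and at 1.253, 0.141 and 4.44 CPM in E861A, the lowest resting on 5 reads. Its highest liver exceeded its lowest 10.3-fold within wild type and 31.5-fold within E861A. That was the widest range within E861A among the tested collagen genes, all of which had reads in each E861A liver, while Col8a1 had the widest within wild type (15.2-fold) among those with reads in each wild-type liver.

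The other uneven genes were Col8a1, Col15a1 and Col23a1. Col23a1, a transmembrane collagen, was at 19.04, 1.96 and 2.52 CPM in wild type and at 2.46, 1.69 and 16.5 CPM in E861A. Col15a1, the second multiplexin, was at 13.7, 1.07 and 2.44 CPM in wild type and at 1.18, 1.24 and 6.17 CPM in E861A. Col8a1, a short-chain collagen of vessels, was at 4.44, 0.782 and 0.291 CPM in wild type and at 0.969, 0.282 and 1.33 CPM in E861A. In each gene wild type 2 and E861A 19 stood above the other 4 livers, by the least for Col8a1, where E861A 6 came close to E861A 19. The difference between genotypes was within the spread for all 3, with log2 fold changes of −0.18 (SE 1.12), −0.995 (SE 1.03) and −1.09 (SE 0.99). Among the transmembrane collagens, Col25a1 was highest in wild type 2 and E861A 6 (25.9 and 18.8 CPM). Of the genes not yet given, Col6a6, Col7a1, Col8a2, Col13a1, Col16a1 and Col22a1 had wild type 2 and E861A 19 as their highest livers, whereas Col5a3, Col17a1 and Col20a1 did not and stayed between 0.318 and 2.38 CPM.

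The order per length of exon depends on lengths that merge the exons of all annotated transcripts of a gene, such as 12145 bp for Col1a2. By mean CPM alone Col1a2 (345) lay above Col1a1 (299) and Col18a1 (202). Per length of exon, Col3a1 was the highest, with a mean of 52.4 CPM per kb over the 6 livers. Col1a1 (45.5), Col18a1 (28.8), Col1a2 (28.4), Col4a1 (24.2), Col4a2 (13.8), Col5a2 (13.2), Col6a1 (12.2), Col5a1 (11.6) and Col6a2 (6.86 CPM per kb) followed. Of the 9 neighbouring pairs in this order, Col4a1 and Col4a2, and Col5a1 and Col6a2, differed by more than the larger SD over the 6 livers of the pair, and the other 7 did not.

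Partner chains were then compared as ratios of reads per exon length within each liver, which cancels the scaling of the library. Col1a1 to Col1a2, the type I pair, was 1.82, 1.49 and 1.64 in wild type and 1.60, 1.46 and 1.45 in E861A. The size of this ratio depends on the merged exon lengths, 6563 bp for Col1a1 and 12145 bp for Col1a2. Before division by length, Col1a2 had more reads than Col1a1 in every liver. The sizes of the ratios are therefore not read as proportions of chains, while their fold range between livers does not depend on the lengths. Col4a1 to Col4a2 was 1.89, 1.89 and 1.77 in wild type and 1.65, 1.74 and 1.68 in E861A. Col6a1 to Col6a2 lay between 1.61 and 2.02. These ratios spanned at most 1.26-fold over the 6 livers, although the levels of Col1a1, Col1a2, Col6a1 and Col6a2 spanned over 3-fold. Col4a5 to Col4a6, whose starts are farther apart, spanned 1.50-fold. Col4a3 to Col4a4, with starts 72 bp apart, ranged from 1.08 to 15.9, with 2 to 39 Col4a4 reads in a liver.

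Other ratios were less even. Col6a3 to Col6a2 was 0.701, 0.808 and 0.922 in wild type and 0.414, 0.288 and 0.485 in E861A. Each E861A liver was below each wild-type liver, and the difference in the mean log2 ratio was −1.06. Col5a1 to Col5a2 was 1.03, 1.40 and 1.08 in wild type and 0.608, 0.863 and 0.675 in E861A, again without overlap (−0.71). Col9a3 to Col9a2 was 0.236, 0.243 and 0.345 in wild type and 0.378, 0.474 and 0.547 in E861A, higher in each mutant liver (0.77). Col4a1 to Col4a2 did not overlap either, with a small difference of −0.13. These were 4 of 14 ratios compared, and the ratios were chosen after the design was fixed. Each of the 4 had the smallest p that the design allows (exact two-sided permutation test, p = 0.1). After Benjamini-Hochberg adjustment over the 14 it was 0.35, so none passed. No share without overlap was taken over other gene pairs. Of single tested genes, 19.4% had every E861A liver above and 14.5% every E861A liver below. Col8a1 to Col8a2 (0.0479 to 0.434), Col11a1 to Col11a2 (0.670 to 5.06), Col9a1 to Col9a2 (0.0101 to 0.320), Col2a1 to Col1a1 (0.00413 to 0.0334) and Col15a1 to Col18a1 (0.00490 to 0.0958) also varied widely over the livers.

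**Figure D4:**
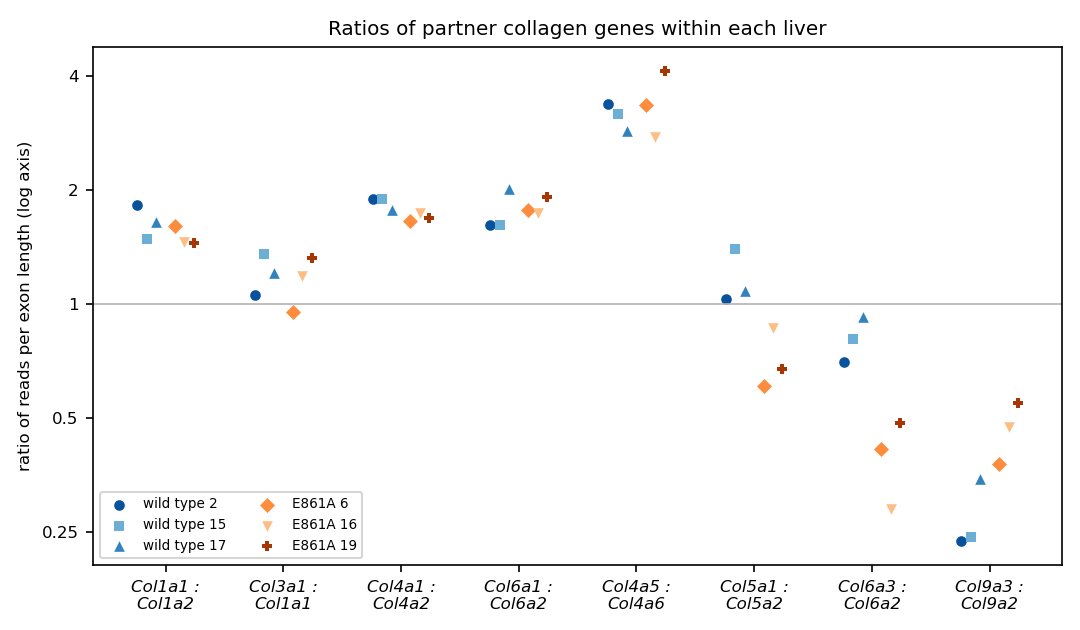
Ratio of reads per exon length between collagen genes within each liver, on a log axis; each symbol is 1 liver, blue for wild type and orange to brown for E861A. Col1a1 to Col1a2, Col4a1 to Col4a2 and Col6a1 to Col6a2 stay within 1.26-fold, and the E861A livers lie below the wild-type livers for Col5a1 to Col5a2 and Col6a3 to Col6a2 and above them for Col9a3 to Col9a2.

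Mesenchymal markers also differed between livers of a genotype. The summed level of 24 markers of mesenchymal and stellate cells was 942, 437 and 486 CPM in wild type 2, 15 and 17 and 671, 447 and 692 CPM in E861A 6, 16 and 19. Wild type 2 was highest, as for the collagens, and E861A 6 and 19 were nearly equal, unlike the collagens. Of the 24, 0 rose and 1 fell, where 7.77% of all tested genes rose and 4.26% fell, so 1 fall is near that share. The gene was Reln, a matrix glycoprotein secreted by stellate cells (log2 fold change −0.80, SE 0.17, edgeR adjusted p 0.0196, and 0.112 with sex as a term). The median log2 fold change of the list was 0.34, against 0.04 over all tested genes. When the mean log2 level of the markers was subtracted liver by liver, the median SD of the 33 collagen genes went from 0.93 to 0.52 within wild type and from 0.63 to 0.59 within E861A. It was smaller for 27 of the 33 genes in wild type and for 22 in E861A. The fall within wild type rested on wild type 2: without it the median SD was 0.40 before and 0.39 after the subtraction.

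The summed gut and lung and neural crest lists stood out in the 2 livers with the most collagen, on few tested genes. The cartilage, heart and muscle lists did so less evenly or not at all. The summed level of 9 gut and lung genes was 44.6, 1.67 and 5.51 CPM in wild type 2, 15 and 17 and 9.50, 5.03 and 42.2 CPM in E861A 6, 16 and 19. Most of it was Barx1, a factor of the stomach mesenchyme, at 33.8 and 24.6 CPM in wild type 2 and E861A 19. Sox2, a factor of foregut epithelium, was at 4.44 and 4.81 CPM in that pair and at most 0.0709 CPM in the others. Of the 9 gut and lung genes only 3 were tested, and the pair was the highest 2 livers for 2 of these 3. The summed level of 8 neural crest and glia genes was 44.2, 13.9 and 12.8 CPM in wild type and 13.6, 19.4 and 54.9 CPM in E861A. Ret, a defining receptor of enteric neural precursors, was at 9.36 CPM in wild type 2, at 10.7 CPM in E861A 19 and at most 0.226 CPM in the other 4 livers. Of the 8 neural crest and glia genes only 3 were tested, and the pair was the highest 2 livers for 3 of these 3. The 11 matched cartilage genes summed to 134, 204 and 156 CPM in wild type and to 62.9, 68.7 and 87.7 CPM in E861A. This sum was highest in wild type 15, the liver with the least collagen. The mean log2 CPM of the 9 tested cartilage genes was instead highest in E861A 19 (1.44) and wild type 2 (1.28), and was 0.63 in wild type 15. E861A 19 was the highest E861A liver for 7 of the 9, and wild type 2 the highest wild-type liver for 4. Of 9 tested cartilage genes 4 had wild type 2 and E861A 19 as the highest livers, against 16.1% of all tested genes. Sox9 was among them, at 9.34 and 7.59 CPM in that pair. Acan, a defining gene of cartilage, was at most 0.634 CPM in any liver. The 8 heart genes summed to 24.6 CPM in wild type 2, 19.6 CPM in E861A 19 and 6.47 to 18.5 CPM in the others. Wild type 2 was the highest wild-type liver for 5 of 5 tested heart genes, and E861A 19 the highest E861A liver for 2. The pair was the highest 2 of the 6 livers for 2 of the 5. Nppa and Nppb were at most 0.0565 CPM in any liver. The 10 muscle genes summed to 53.0 CPM in wild type 2 and to between 17.4 and 32.2 CPM in the others. E861A 19 (32.2 CPM) and wild type 15 (32.1 CPM) were nearly equal. Wild type 2 was the highest wild-type liver for 9 of 9 tested muscle genes and E861A 19 the highest E861A liver for 8 of them. The pair was the highest 2 of the 6 livers for 1 of these 9, against 16.1% of all tested genes. The part of these tissues in the collagen levels was not tested.

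Markers of the liver's own cells moved in other ways. The 16 erythroid markers were highest in wild type 15, the liver with the least collagen. Of these, 8 fell in E861A and 0 rose, where 4.26% of all tested genes fell and 7.77% rose. Leaving the erythroid and globin reads out of the total changed the difference in collagen share from 0.0206 to 0.0200 percentage points. Of the other lists, 5 of 14 hepatoblast genes and 7 of 14 genes of the dissociation response rose, against the same 7.77%. Of 11 tested macrophage genes 2 rose and 1 fell. Of the mesothelial, megakaryocyte, muscle, heart, gut and lung and neural crest lists 0 genes passed in either direction, and 1 cartilage gene, Sox6, fell. The dissociation response genes summed to 283, 576 and 443 CPM in wild type and to 811, 1503 and 1557 CPM in E861A, lowest in wild type 2 and highest in E861A 19.

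**Figure D5:**
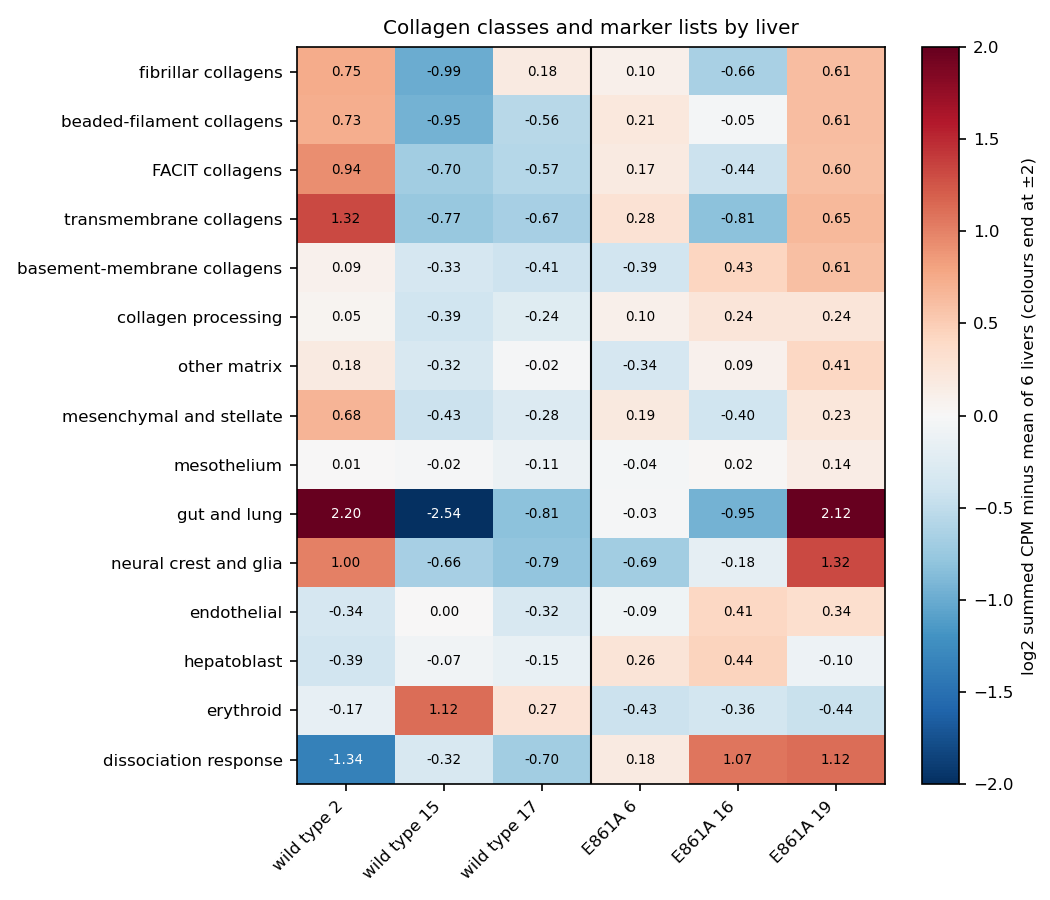
Log2 of the summed CPM of collagen classes and marker lists in each liver, minus the mean of the 6 livers (red above, blue below). Fibrillar, beaded-filament, FACIT and transmembrane collagens are highest in wild type 2 and E861A 19, as are the gut and lung and the neural crest and glia lists. Basement-membrane collagens are highest in E861A 16 and 19, as are the endothelial, collagen processing, dissociation response and, by little, mesothelium lists.

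The 10 genes whose levels most resembled the mean of the 11 fibrillar collagens over the 6 livers were picked from 12649 genes with at least 1 CPM in each liver. They were Ror2 (Pearson r 0.997), Zcchc24, Dzip1, Crispld2, Slc22a17, Epha4, Rab15, D630003M21Rik, Tyro3 and Tead2 (0.992). Ror2, a receptor for Wnt5a, was at 15.2, 1.96 and 4.74 CPM in wild type and at 3.90, 2.68 and 13.3 CPM in E861A. The points are the same 6 libraries for every gene, and the genes were picked for this likeness.

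Few genes that act on collagen rose in E861A, and their counts stand against the 7.77% of all tested genes that rose. Of 34 tested genes of collagen synthesis and processing, 2 rose and 0 fell, with a median log2 fold change of 0.18 against 0.04 over all tested genes. P4ha1, a catalytic subunit of the prolyl hydroxylase that stabilises the triple helix, was at 71.9, 57.2 and 71.0 CPM in wild type and at 131, 151 and 134 CPM in E861A. Plod3, a lysyl hydroxylase, was at 38.4, 46.3 and 45.2 CPM in wild type and at 75.7, 93.9 and 83.5 CPM in E861A. Neither gene overlapped between genotypes, and neither followed the livers with the most collagen. The log2 fold changes were 1.06 (SE 0.15, edgeR adjusted p 0.0039) and 0.96 (SE 0.15, 0.00557). With sex as a term P4ha1 had a log2 fold change of 0.95 and an edgeR adjusted p of 0.0585, so its call was lost. Plod3 had 1.14 and an edgeR adjusted p of 0.0258 with that term. Over all genes 569 of 16511 changed with that term, against 1986 without it. With male livers only, where wild type 2 is the single wild-type liver, the log2 fold changes were 0.96 for P4ha1 and 1.15 for Plod3.

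Of 11 collagen receptors 1 rose: Lair1, an inhibitory receptor of blood cells that binds collagen, at 1.61, 1.49 and 1.40 CPM in wild type and at 5.67, 4.15 and 5.40 CPM in E861A (log2 fold change 1.76, SE 0.26, edgeR adjusted p 0.00496). The integrin and discoidin receptors did not pass, and Ddr2 was highest in E861A 19 and wild type 2 (31.8 and 27.5 CPM). Of 12 tested genes of collagen degradation 1 rose: Mmp13, an interstitial collagenase, at 0.138, 0.0521 and 0.0530 CPM in wild type and at 1.65, 0.395 and 0.503 CPM in E861A (3.32, SE 0.73, edgeR adjusted p 0.0253). Of 34 tested genes of other matrix proteins 1 rose: Agrn, a basement-membrane proteoglycan, at 196, 145 and 158 CPM in wild type and at 276, 454 and 554 CPM in E861A (1.37, SE 0.27, edgeR adjusted p 0.0157). Lair1, Mmp13 and Agrn had each E861A liver above each wild-type liver, and each lost its call with sex as a term (edgeR adjusted p 0.0720, 0.245 and 0.183).

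The TGF-beta pathway, a known inducer of collagen genes in fibrosis, was represented by 18 tested genes, of which 2 rose and 0 fell (median log2 fold change 0.04). Ctgf, a secreted matrix-associated protein, was at 5.66, 3.94 and 3.60 CPM in wild type and at 8.63, 10.4 and 7.09 CPM in E861A. Ctgf was higher in each E861A liver than in each wild-type liver, and it was highest in E861A 16 and not in the livers with the most collagen. The log2 fold change of Ctgf was 0.99 (SE 0.26, edgeR adjusted p 0.0487), and its call was lost under other scalings, a stricter filter and with sex as a term.

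The deposited list of 6012 editing sites was searched for the collagen genes, since ADAR1 edits RNA. It held 0 sites within the 43 genes or the 3000 bp on either side, so no editing level could be compared for them.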

How the data were processed

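Per the labels, RNA came from single-cell suspensions of whole livers and was sequenced as standard Illumina libraries. The submitters' processing notes name limma, edgeR, HTSeq, Cufflinks, BWA, SAMtools 0.1.19, Bowtie2 2.1.0.0, TopHat2 2.0.8 and Trimmomatic 0.30, and the builds NCBIM37 and mm9, without tying them to a file. The gene table holds whole-number raw counts per Ensembl gene, as deposited by the authors. The authors' deposited table also gives a log2 fold change and p-values for each gene, per the file headers as wild type minus mutant, turned here. Strandedness is not given in the sources used here.

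Counts of all genes were fitted with edgeR 4.0.16 (R 4.3.3; filterByExpr, TMM factors, robust quasi-likelihood F test), E861A over wild type, with Benjamini-Hochberg adjustment over 16511 genes and a threshold of 0.05. The fit was also run on simulated counts with the same dispersion for every gene, which does not cover the wider spread of the collagen genes. CPM are counts per 1e+06 reads of the TMM-scaled totals, and log2 CPM used a prior count of 2. SD is over livers, and SE is the absolute fold change (log2) divided by the root of its F value. Lengths are merged exons of GENCODE M1. DESeq2 1.42.0, other scalings and filters, sex, male livers only, a mesenchymal covariate and leaving out livers were alternatives.

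Named with values in every liver were the collagen genes past the threshold, the 10 highest per kb, head-to-head pairs and the 5 widest ranges within each genotype, with a few added for their class after values were seen. From the lists of matrix genes, up to 5 past the threshold were named, and cell lists are given mostly as counts. The members and the 18 lists were chosen with earlier results of these data known. Some genes of these lists are counted but not reported here by name.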

Additional observations from a re-analysis of the deposited data

How the results depend on the processing

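No paired analysis was possible because no number occurs in both genotypes and no litter is given. No editing alternative gave a value, since no listed site lies in a collagen gene. The cause of each change was not tested, except that leaving out livers and comparing males only use fewer samples. Leaving out 1 liver at a time, rising collagen genes numbered 0 to 6, the median SD within wild type was 0.40 to 1.22 and the difference in collagen share −0.0340 to 0.0835 percentage points. In the same runs rising genes numbered 2 to 8 (processing), 0 to 2 (degradation), 0 to 5 (other matrix), 1 to 5 (TGF-beta) and 0 to 8 (mesenchymal), and falling genes 0 to 1 (receptors, degradation, other matrix, mesenchymal). The log2 fold changes ranged from −0.49 to 0.39 (Col1a1), −0.27 to 0.48 (Col1a2), −0.54 to 0.28 (Col3a1), −0.10 to 0.68 (Col5a2), −2.69 to 0.11 (Col12a1), −2.31 to 0.66 (Col15a1), −1.98 to 1.58 (Col23a1) and −2.43 to 1.16 (Col2a1). With the mesenchymal level as a covariate, 1 collagen gene rose, 2 fell and Col1a2 was −0.19, where 2638 of 16511 genes changed in all. Without wild type 2 and E861A 19, 4 collagen genes rose and 1 fell, Col1a1 was 0.16, and rising genes numbered 4 (processing), 2 (other matrix) and 5 (mesenchymal), with 1 falling in each of degradation and other matrix. With sex as a term, rising genes numbered 1 (processing, TGF-beta) or 0 (receptors, degradation, other matrix), 0 mesenchymal genes fell (median −0.44), and Col1a2 was −0.50, Col5a2 −0.31, Col6a1 −0.10 and Col6a2 −0.27. With male livers only, rising genes numbered 1 (TGF-beta) or 0 (processing, receptors, degradation, other matrix), 0 mesenchymal genes fell (median −0.43), and these 4 genes were −0.50, −0.30, −0.091 and −0.26. In degradation, 1 gene fell with DESeq2 and 0 rose with the filter of 1 CPM, and 1 TGF-beta gene rose with that filter, with total counts and with DESeq2 size factors. The median of the collagen genes was −0.60 with sex as a term and −0.62 with male livers only. With sex as a term 0 collagen genes were called, where 569 of 16511 genes changed in all.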
